A study of Mus musculus with 6 samples.

Results

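Goblet cells coat the intestine with mucus, and 9 genes for secreted and structural mucus proteins were followed here across all libraries of the series. The genes were Muc2, Fcgbp, Clca3, Zg16, Tff3, Retnlb, Spink4, Agr2 and Muc13, taken by symbol from the 23845 genes of the count table, and all 9 passed the filter on low counts. Clca3 is the table's symbol for the gene now called Clca1, identified by its RefSeq transcript. RNA-seq was run on 6 mouse libraries described as intestinal epithelial cells, in 3 groups of 2. EGFP cells were sorted for a fluorescent Neurog3 reporter from C57BL6 mice whose genotype is given as Neurog3+/-EGFP, with 1 allele of Neurog3. EYFP cells were sorted the same way from mice of mixed C57BL6 and CD1 strain labelled Neurog3+/+EYFP, with 2 alleles. Wild-type libraries came from C57BL6 mice and their titles point to duodenum. Whether the wild-type cells were sorted is not stated. The sources used here do not give age, sex, the gut segment of the sorted cells or the number of mice per library, and whether replicates are separate mice is not stated, so p-values measure the spread between these libraries, which may be technical.

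Intestinal mucus is a gel built from the mucin Muc2, which is folded and linked through disulfide bonds in the endoplasmic reticulum, packed into granules and released by goblet cells. Other secreted proteins bind to this net, cut it, or hold bacteria in it, while transmembrane mucins such as Muc13 cover the surface of many epithelial cells. Goblet cells and enteroendocrine cells both arise from secretory progenitors that use the transcription factor Atoh1, and Neurog3 directs such progenitors to the endocrine fate. The series asks how the dose of Neurog3 affects the differentiation of these endocrine progenitors.

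Total estimated counts ranged from 7938358 to 20589683 per library. Levels are given in CPM, the counts of a library scaled to a common total with TMM factors, and group means with SD (n = 2). Log2 fold changes are given with their standard error (SE), and adjusted p-values come from edgeR's quasi-likelihood test over 13935 genes. Neurog3 itself stood at 120 and 179 CPM in EGFP cells, 563 and 348 CPM in EYFP cells, and 6.0 and 6.39 CPM in wild type. Xist, a transcript of the inactive X chromosome, was at 966 to 969 CPM in EGFP cells and 0.634 to 2.36 CPM in EYFP cells. The wild-type libraries held 1.17 and 726 CPM of it. Between EGFP and EYFP cells, the Neurog3 dose cannot be told apart from strain, from reporter or from what goes with the sex-linked transcripts. Between reporter-sorted cells and wild type, genotype cannot be told apart from selection for the reporter or from the mix of cells. For EYFP cells, strain differs from wild type too.

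Transcripts of the mucus genes made up the largest share of the library in EGFP cells. The 9 genes together took 6.93% (95% Wilson interval 6.91 to 6.95) and 10.7% (10.68 to 10.72) of all counts there, 0.774% (0.77 to 0.779) and 0.844% (0.84 to 0.848) in wild type, and 0.168% (0.166 to 0.17) and 0.316% (0.313 to 0.32) in EYFP cells. These intervals cover counting error only. Fcgbp had the highest count of all genes in both EGFP libraries, with Zg16 in place 3 and 2. In EYFP cells the highest count belonged to Chgb, a granule protein of endocrine cells, and Fcgbp stood at place 338 and 55. In these bulk libraries, fewer goblet cells and less mucus RNA per cell cannot be told apart.

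**Figure D1:**
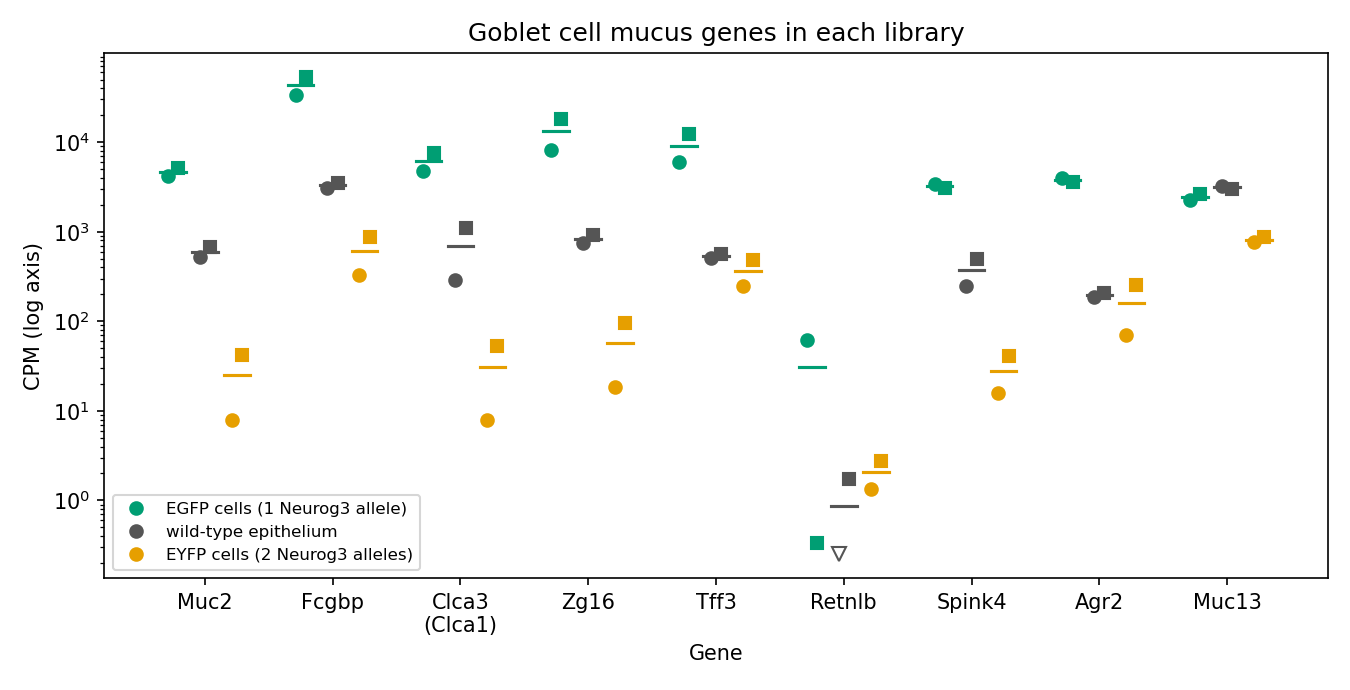
Level of each mucus gene in CPM (log axis) in the 6 libraries; circles are replicate 1, squares replicate 2, short lines the group means, and the open triangle marks a count of 0, drawn at the level of 3 counts. For 8 genes both EGFP libraries lie above both EYFP libraries; Retnlb is the exception, at 61.4 and 0.338 CPM in EGFP cells.

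Between EYFP and EGFP cells, 8 of the 9 mucus genes were lower, 0 were higher and 1, Retnlb, did not pass the test. Of all 13935 genes tested, 19.4% were lower by the same rule. The median log2 fold change was -6.18 over the 9 genes and 0.0084 over all genes tested. For the same 8 genes the libraries of the groups did not overlap, with both EYFP libraries below both EGFP libraries, as was the case for 37.0% of all genes tested. The comparisons of EGFP and EYFP cells with wild type share the wild-type libraries, so each is given on its own.

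Promoter windows were at hand for 4 of the 9 genes (RefSeq, GRCm38.p6). They are shown because these genes all fell from EGFP to EYFP cells, by different amounts. The log2 fold changes were -7.55 for Muc2, -6.18 for Fcgbp, -4.55 for Agr2 and -1.59 for Muc13. The 250 bases before the annotated start site were searched on both strands for 3 motifs. CAGCTG is an E-box of the kind that basic helix-loop-helix factors such as Atoh1 and Neurog3 bind. The second motif was the E-box CAGATG, and the other was the TATA box TATAAA. No motif overlapped another in these windows. Matches are in capitals.
Muc2, chr7:141690090-141690339, plus strand: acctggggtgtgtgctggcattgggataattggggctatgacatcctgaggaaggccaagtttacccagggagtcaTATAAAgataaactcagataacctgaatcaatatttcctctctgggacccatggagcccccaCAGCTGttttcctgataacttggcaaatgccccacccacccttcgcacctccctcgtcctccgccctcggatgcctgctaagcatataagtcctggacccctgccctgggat
Fcgbp, chr7:28070986-28071235, plus strand: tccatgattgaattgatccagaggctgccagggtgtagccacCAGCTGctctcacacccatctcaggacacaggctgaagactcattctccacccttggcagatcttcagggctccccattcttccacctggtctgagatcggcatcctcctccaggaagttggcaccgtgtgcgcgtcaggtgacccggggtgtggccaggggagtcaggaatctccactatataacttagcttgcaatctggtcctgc
Agr2, chr12:35992675-35992924, plus strand: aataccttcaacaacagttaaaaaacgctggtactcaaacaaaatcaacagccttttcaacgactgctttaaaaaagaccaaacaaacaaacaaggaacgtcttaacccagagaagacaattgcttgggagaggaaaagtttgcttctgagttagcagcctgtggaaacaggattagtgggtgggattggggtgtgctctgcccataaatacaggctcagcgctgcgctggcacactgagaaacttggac
Muc13, chr16:33793787-33794036, plus strand: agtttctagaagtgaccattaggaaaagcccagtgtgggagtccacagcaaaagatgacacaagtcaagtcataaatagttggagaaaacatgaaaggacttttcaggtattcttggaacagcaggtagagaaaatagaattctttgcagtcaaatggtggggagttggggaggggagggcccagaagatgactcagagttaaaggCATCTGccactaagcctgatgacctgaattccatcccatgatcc

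CAGCTG began 112 bases before the start of Muc2 and 208 bases before that of Fcgbp. Muc13 held CAGATG on the opposite strand 44 bases before the start shown, while the window of a second annotated start of Muc13 (chr16:33794239-33794488) held none of the motifs. Muc2 held TATAAA 174 bases before its start. Agr2, which also fell between EGFP and EYFP cells, held none of the 3 motifs in this window. Of all 32851 windows of this length, 13.0% held CAGCTG, 14.4% CAGATG and 12.4% TATAAA, so a match is common and is given as a description.

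Muc2, the gel-forming mucin, lies on chromosome 7 from 141690340 to 141754691 (mm10, plus strand). It stood at 4179 and 5144 CPM in EGFP cells, 523 and 676 CPM in wild type, and 7.96 and 42.1 CPM in EYFP cells. The groups did not overlap, and EGFP cells were highest and EYFP cells lowest. From EGFP to EYFP cells Muc2 fell 187-fold (a log2 value of -7.55 ± 0.90, edgeR adjusted p = 0.00214), and the value was -6.79 and -9.2 without EYFP replicates 1 and 2. It was higher in EGFP cells than in wild type (2.96 ± 0.73, edgeR adjusted p = 0.0203), which no longer passed when EGFP replicate 2 (adjusted p = 0.0845), wild-type replicate 1 (0.15) or wild-type replicate 2 (0.132) was left out, or with no filter on low counts (0.112). It was lower in EYFP cells than in wild type (-4.59 ± 0.79, edgeR adjusted p = 0.00328; -3.83 and -6.23 without EYFP replicates 1 and 2).

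Fcgbp encodes a large secreted protein rich in von Willebrand type D domains that is bound to the mucus net. It lies on chromosome 7 from 28071236 to 28120864 and stood at 33560 and 53500 CPM in EGFP cells, 3113 and 3508 CPM in wild type, and 332 and 871 CPM in EYFP cells. Its 3 groups were again separate. It fell by 6.18 ± 0.62 on the log2 scale from EGFP to EYFP cells (edgeR adjusted p = 0.000565; -7.04 without EYFP replicate 2). Against wild type it was 3.72 ± 0.55 higher in EGFP cells (edgeR adjusted p = 0.00132) and had a log2 fold change of -2.46 ± 0.52 in EYFP cells (edgeR adjusted p = 0.00438; -3.32 without EYFP replicate 2). Of the stretches of 50 bases, the read length, in its transcripts, 6.42% also occur in transcripts of other genes, 9530053A07Rik downstream of it and B230219D22Rik, so a small part of its count depends on how reads were divided. No such stretch was shared for any of the other 8 genes.

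Clca3, on chromosome 3 from 145004537 to 145032776 (minus strand), encodes a secreted metalloprotease that cuts Muc2 and so loosens the mucus. It stood at 4808 and 7529 CPM in EGFP cells, 290 and 1087 CPM in wild type, and 7.89 and 53.2 CPM in EYFP cells. The libraries of the 3 groups were separate, but the wild-type pair lay far apart. Its log2 fold change from EGFP to EYFP cells was -7.66 ± 1.35 (edgeR adjusted p = 0.0118; -6.86 and -9.61 without EYFP replicates 1 and 2), and did not pass without EGFP replicate 2 (adjusted p = 0.0512) or with no filter on low counts (0.0596). The difference between EGFP cells and wild type, 3.16 ± 1.09, did not pass (edgeR adjusted p = 0.074), and passed in the DESeq2 Wald test (0.0139), in a fit to the 4 libraries compared (0.0104) and without either EYFP library (0.0157 and 0.0165). That value was 2.5 and 4.41 without wild-type replicates 1 and 2. In the authors' deposited table the adjusted p of this difference is 0.00458. EYFP cells were below wild type (-4.50 ± 1.17, edgeR adjusted p = 0.0224); it no longer passed without wild-type replicate 2 (-3.26, adjusted p = 0.0955) or EGFP replicate 2 (0.0565), with no filter (0.0954) and with only 4 libraries (0.0579), and the value was -3.69, -6.45 and -5.16 without EYFP replicate 1, EYFP replicate 2 and wild-type replicate 1.

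Zg16, a small lectin that binds the cell wall of Gram-positive bacteria in mucus, lies on chromosome 7 from 127050156 to 127052675 (minus strand). It stood at 8157 and 18290 CPM in EGFP cells, 740 and 912 CPM in wild type, and 18.4 and 96.5 CPM in EYFP cells. Its log2 fold change from EGFP to EYFP cells was -7.85 ± 1.03 (edgeR adjusted p = 0.00272), which lay within the SE of those of Clca3 and Muc2. Without EGFP replicate 2, EYFP replicate 1 and EYFP replicate 2 it was -7.15, -7.1 and -9.49. Zg16 was 4.0 ± 0.86 higher in EGFP cells than in wild type (edgeR adjusted p = 0.0118). It did not pass without EGFP replicate 2 (3.31, adjusted p = 0.0525), without either wild-type library (0.117 and 0.112) and with no filter (0.0808). Against wild type EYFP cells had -3.85 ± 0.85 (edgeR adjusted p = 0.00893), with -3.1 and -5.49 without EYFP replicates 1 and 2; here too it did not pass without wild-type replicates 1 and 2 (adjusted p of 0.0509 and 0.0601) and with no filter (0.0643).

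Spink4 encodes a small secreted peptide of the Kazal-type protease inhibitor family and lies on chromosome 4 from 40920056 to 40931395. It stood at 3394 and 3059 CPM in EGFP cells, 246 and 496 CPM in wild type, and 15.9 and 40.5 CPM in EYFP cells. The order of the groups was that of Muc2, with no overlap. Spink4 fell by 6.84 ± 0.63 on the log2 scale from EGFP to EYFP cells (edgeR adjusted p = 0.000776; -7.67 without EYFP replicate 2). It was 3.12 ± 0.53 higher in EGFP cells than in wild type (edgeR adjusted p = 0.00415; 3.71 without wild-type replicate 2). Between EYFP cells and wild type the log2 fold change was -3.72 ± 0.55 (edgeR adjusted p = 0.00135; -4.54 without EYFP replicate 2 and -3.13 without wild-type replicate 2).

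Tff3 and Agr2 fell between EGFP and EYFP cells as the genes above did, but had smaller differences and did not pass the test between EYFP cells and wild type. Tff3, a trefoil peptide that promotes repair of the epithelium, lies on chromosome 17 from 31125306 to 31129611 (minus strand). It stood at 5972 and 12200 CPM in EGFP cells, 515 and 558 CPM in wild type, and 251 and 486 CPM in EYFP cells. It fell by 4.62 ± 0.50 from EGFP to EYFP cells (edgeR adjusted p = 0.000776; -4.02 without EGFP replicate 2) and was 4.08 ± 0.48 higher in EGFP cells than in wild type (edgeR adjusted p = 0.000539; 3.48 without EGFP replicate 2). Its log2 fold change between EYFP cells and wild type was -0.54 ± 0.43 (edgeR adjusted p = 0.306), although both EYFP libraries lay below both wild-type libraries. Agr2, a disulfide isomerase of the endoplasmic reticulum that Muc2 needs for its folding, lies on chromosome 12 from 35992925 to 36004081. It stood at 3975 and 3593 CPM in EGFP cells, 188 and 208 CPM in wild type, and 69.9 and 252 CPM in EYFP cells. The EYFP libraries lay on either side of wild type. Agr2 fell by 4.55 ± 0.63 on the log2 scale from EGFP to EYFP cells (edgeR adjusted p = 0.00298; -3.91 and -5.76 without EYFP replicates 1 and 2) and was 4.26 ± 0.62 higher in EGFP cells than in wild type (edgeR adjusted p = 0.00234). Between EYFP cells and wild type it had a log2 fold change of -0.30 ± 0.54 (edgeR adjusted p = 0.659), with 0.35 (adjusted p = 0.36) when EYFP replicate 1 was left out and -1.5 (adjusted p = 0.00723) when EYFP replicate 2 was.

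Muc13, a transmembrane mucin that enterocytes carry as well as goblet cells, followed another order. It lies on chromosome 16 from 33794037 to 33819929 and stood at 2251 and 2661 CPM in EGFP cells, 3204 and 3029 CPM in wild type, and 766 and 864 CPM in EYFP cells. Wild type was highest, and the replicates of each group lay close together. Muc13 fell by 1.59 ± 0.23 on the log2 scale from EGFP to EYFP cells (edgeR adjusted p = 0.00189), the smallest fall among the 8 genes that passed. EYFP cells were also below wild type (-1.94 ± 0.23, edgeR adjusted p = 0.000234). Its difference between EGFP cells and wild type, -0.34 ± 0.22, did not pass (edgeR adjusted p = 0.261).

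Retnlb encodes a cysteine-rich secreted peptide that goblet cells make in response to microbes and worms, and lies on chromosome 16 from 48816856 to 48818892. It had 509 and 4 counts in EGFP cells, 0 and 29 in wild type, and 19 and 33 in EYFP cells. The first EGFP library therefore held 61.4 CPM (95% counting interval 56.2 to 67.0) and the second 0.338 CPM (0.0922 to 0.866), while the count of 0 in wild-type replicate 1 allows up to 0.25 CPM. In the EGFP pair only 0.0431% of the genes tested lay as far apart as Retnlb. Its log2 fold change from EGFP to EYFP cells was -3.90 ± 2.36 (edgeR adjusted p = 0.28), and depended on a single library: leaving out EGFP replicate 1 gave 2.62 (adjusted p = 0.373) and leaving out EGFP replicate 2 gave -4.92 (adjusted p = 0.0467). Against wild type the value in EGFP cells was 4.98 ± 2.54 (edgeR adjusted p = 0.212), -1.3 without EGFP replicate 1 and 5.99 (adjusted p = 0.0292) without EGFP replicate 2. EYFP cells and wild type, at 2.06 ± 1.02 and 0.874 ± 1.24 CPM, overlapped.

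Across the 9 genes, 6 were higher in EGFP cells than in wild type and 0 lower, where 19.6% of all genes tested were higher and 21.9% lower. Between EYFP cells and wild type 6 were lower and 0 higher, where 33.5% of all genes tested were lower and 27.1% higher. The median log2 fold changes were 3.72 and -2.46, against 0.0031 and -0.12 over all genes tested.

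**Figure D2:**
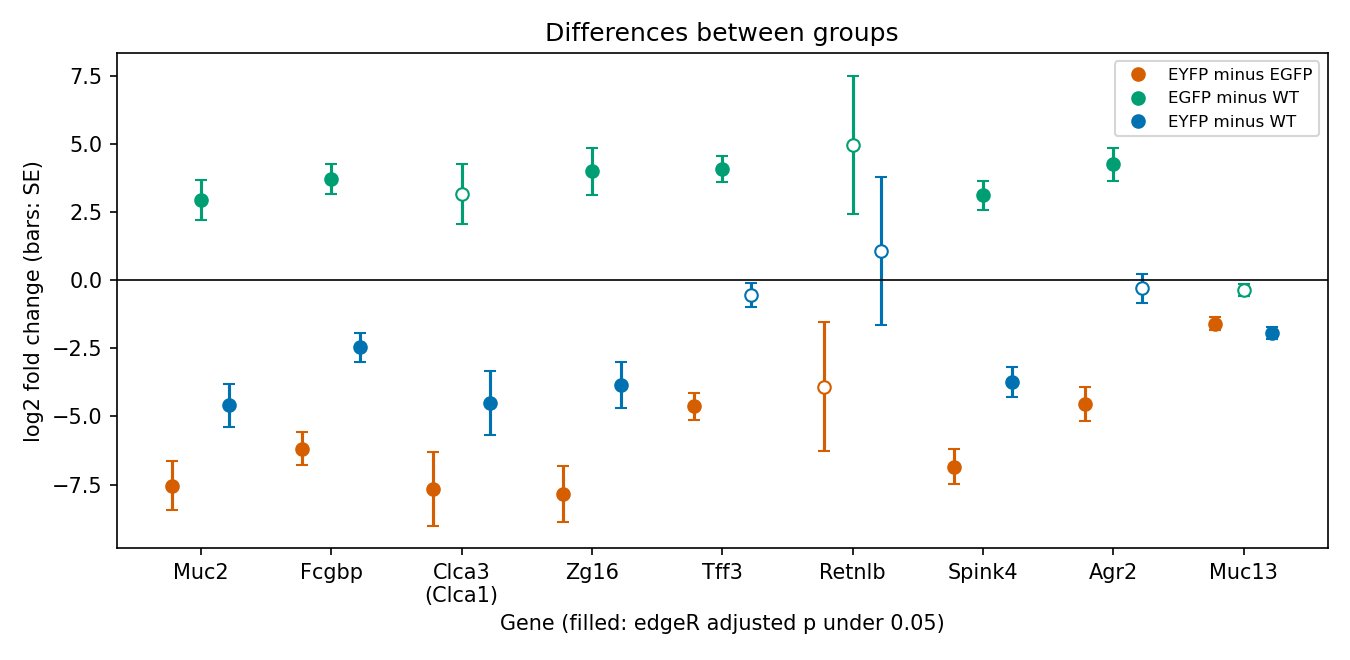
Log2 fold changes of the 9 genes between groups, with their SE; filled circles passed edgeR's test at an adjusted p under 0.05 and WT stands for wild type. EYFP minus EGFP (orange) is below 0 for every gene, from -7.85 for Zg16 to -1.59 for Muc13, and Tff3 and Agr2 lie near 0 between EYFP cells and wild type.

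Levels can be set beside each other between genes only per length, and 8 of the 9 genes had a transcript length in GENCODE; Muc2 had none matched to its RefSeq transcript. On the scale of CPM per kilobase of transcript, Zg16 (20790 ± 11260) and Tff3 (18430 ± 8927) were highest in EGFP cells and did not differ beyond their spread. Spink4 (8127 ± 597), Fcgbp (5491 ± 1778) and Agr2 (4826 ± 344) followed, and the latter pair did not differ beyond their spread. Clca3 stood at 1688 ± 526, Muc13 at 827 ± 97.5 and Retnlb at 44.3 ± 62.0 CPM per kilobase. The order of means was different in EYFP cells. Tff3 (747 ± 338) came first there, ahead of Muc13 (274 ± 23.4) and Agr2 (206 ± 165). Zg16 (90.3 ± 86.8), Fcgbp (75.8 ± 48.0) and Spink4 (71 ± 43.7) came next. The levels of Agr2 in EYFP cells, 89.2 and 322 CPM per kilobase, overlapped those of Muc13, Zg16, Fcgbp and Spink4. Zg16, Fcgbp and Spink4 also overlapped each other in EYFP cells. Clca3 was at 8.35 ± 8.76 CPM per kilobase there. In wild type Zg16 (1298 ± 191), Tff3 (1088 ± 61), Muc13 (1050 ± 41.9) and Spink4 (934 ± 444) lay close together.

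The fall of each gene can be set beside that of Muc2 by the ratio of their counts in the same library. Agr2 had 0.951 and 0.699 counts per Muc2 count in EGFP cells, 0.359 and 0.308 in wild type, and 8.78 and 6.0 in EYFP cells. Tff3 had 1.43 and 2.37 in EGFP cells, 0.986 and 0.825 in wild type, and 31.5 and 11.6 in EYFP cells. Both ratios were higher in each EYFP library than in any other library. Fcgbp had 8.03 and 10.4 counts per Muc2 count in EGFP cells, 5.96 and 5.19 in wild type, and 41.7 and 20.7 in EYFP cells. Muc13 went from 0.539 and 0.517 in EGFP cells to 96.2 and 20.5 in EYFP cells. Spink4 went from 0.812 and 0.595 in EGFP cells to 2.0 and 0.962 in EYFP cells. Zg16 and Clca3 kept close to Muc2: Zg16 had 1.95 and 3.56 in EGFP cells and 2.31 and 2.29 in EYFP cells, and Clca3 had 1.15 and 1.46 against 0.991 and 1.264. An exact permutation test of 2 libraries against 2 cannot give a two-sided p below 0.333, so the 8 ratios are given as a description. Of these, 6 were higher in both EYFP libraries than in both EGFP libraries, and the ratios of Zg16 and Clca3 overlapped. Because Muc2 itself fell so far, 98.8% of the other 13934 genes tested also had a higher ratio to Muc2 in both EYFP libraries. The 6 ratios therefore say only that these genes did not fall as far as Muc2. Retnlb is among the 6, and its own difference between EYFP and EGFP cells did not pass the test.

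**Figure D3:**
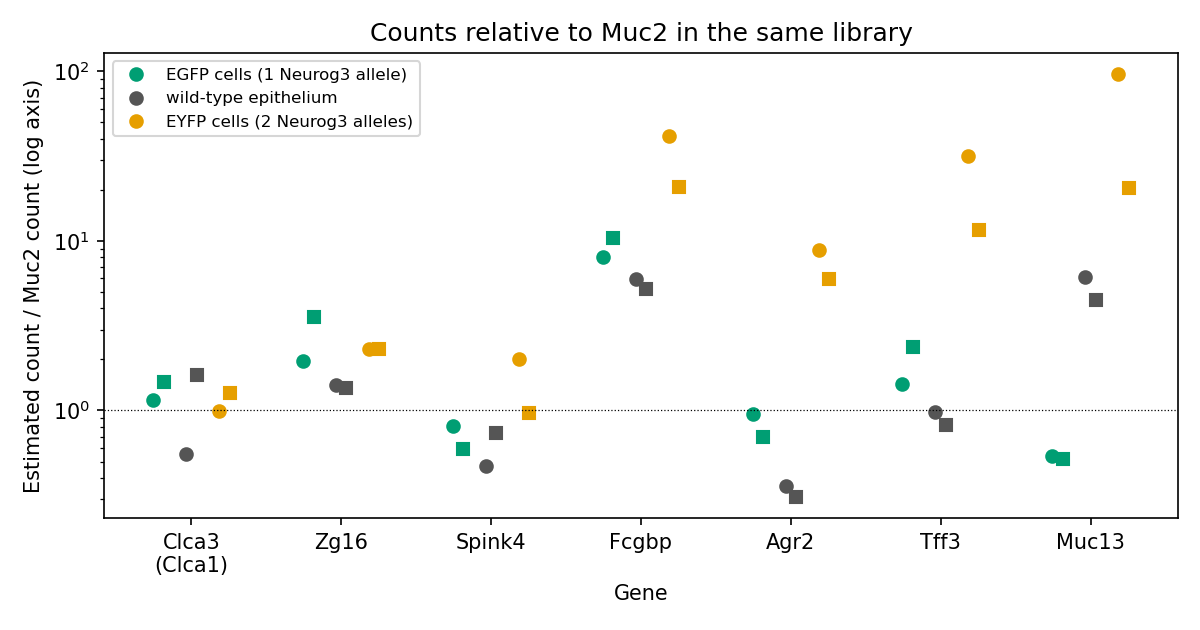
Estimated count of 7 mucus genes divided by the Muc2 count of the same library (log axis); circles are replicate 1 and squares replicate 2, and the dotted line marks equal counts. Agr2, Tff3, Fcgbp, Spink4 and Muc13 have their highest ratios in the EYFP libraries, while Clca3 and Zg16 overlap between EGFP and EYFP cells.

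All 9 genes were higher in EYFP replicate 2 than in replicate 1, by factors that differed between genes. Replicate 2 held 6.74 times the CPM of Clca3 in replicate 1, 5.28 times that of Muc2 and 5.25 times that of Zg16. The factor was 3.61 for Agr2, 2.62 for Fcgbp, 2.54 for Spink4, 2.07 for Retnlb, 1.94 for Tff3 and 1.13 for Muc13. Of all genes tested, 0.66% lay as far apart in that pair as Muc2, 6.23% as far as Tff3 and 54.9% as far as Muc13. Neurog3 was the lower of the pair in the same library, at 0.618 times replicate 1. Other genes moved in this pair as well. Enterocyte markers summed to 1886 and 2655 CPM in EYFP replicates 1 and 2. Paneth markers other than Reg4 went the other way, at 740.3 and 416.5 CPM. Enteroendocrine markers summed to 69550 and 66140 CPM. Chgb made up 67.8% and 50.1% of these sums, and the other enteroendocrine markers summed to 22390 and 33040 CPM. What goes with the gap was not tested. In the EGFP pair, replicate 2 held 2.24 times the Zg16, 2.04 times the Tff3 and 1.59 times the Fcgbp of replicate 1, but 0.901 times the Spink4 and 0.904 times the Agr2. In wild type the Clca3 level of replicate 2 was 3.75 times that of replicate 1 and the Spink4 level 2.01 times, while the other genes above 100 CPM differed by at most 1.29 times. The wild-type replicates differ in Xist as given above, and the part of this in their gap was not tested.

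Other genes of mucus biology were taken from lists chosen with earlier results of these data known. Of 12 other secreted mucus genes tested (of 20 listed), 9 were lower in EYFP than in EGFP cells, 1 was higher and 2 did not pass. Their median log2 fold change was -2.83. Of all genes tested, 19.4% were lower and 16.8% were higher. Sval1, at 2.53 and 3.21 CPM in EGFP cells, had 0 counts in EYFP cells, which with 3 counts over the group as the limit makes it at least 25.5-fold lower (at least 11.6-fold and 13.9-fold without EYFP replicates 1 and 2). The gene that rose was Agr3, the close relative and neighbour of Agr2 on chromosome 12 from 35925621 to 35949737. Agr3 stood at 19.1 and 29.9 CPM in EGFP cells, 45.7 and 64.4 CPM in EYFP cells, and 3.58 and 5.01 CPM in wild type (EYFP against EGFP 1.16 ± 0.28, edgeR adjusted p = 0.0163). It did not pass without EGFP replicate 1 (0.94, adjusted p = 0.0859) or EYFP replicate 2 (0.89, adjusted p = 0.0945). It was also higher in EYFP cells than in wild type, by 3.66 ± 0.32 (edgeR adjusted p = 5.98e-05), where Agr2 did not pass.

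Of the other mucins, 8 of 12 listed had a row and 2 were tested, Muc4 and Muc20, and neither passed between EYFP and EGFP cells. Muc1, a transmembrane mucin, had 27 counts in all and did not pass the filter. Muc4, another transmembrane mucin, stood at 158 and 171 CPM in EGFP cells, 224 and 333 CPM in EYFP cells, and 208 and 115 CPM in wild type. Its log2 fold change between EYFP and EGFP cells was 0.76 ± 0.31 (edgeR adjusted p = 0.0998), and it passed in the DESeq2 Wald test (0.0334), with only the 4 libraries compared (0.0235) and without either wild-type library (0.0287 and 0.0285). The gel-forming mucins of stomach and airway were at or near 0: Muc5b had 0 counts in all 6 libraries and Muc5ac had 1 count in all.

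Factors of goblet fate had 7 of 12 members lower in EYFP than in EGFP cells, 3 higher and 2 not past the test, with a median of -1.256. The shares over all genes tested were 19.4% lower and 16.8% higher. Gfi1, a zinc finger repressor below Atoh1, had the largest fall, with -6.85 ± 0.43 on the log2 scale (edgeR adjusted p = 0.000175), from 50.8 and 49.4 CPM to 0.352 and 0.505 CPM. Atoh1 itself stood at 150 and 155 CPM in EGFP cells, 2.96 and 4.71 CPM in EYFP cells, and 8.66 and 15.6 CPM in wild type. Foxa2, a forkhead factor of endoderm, had the largest rise, from 37.6 and 45.3 to 81.4 and 75.3 CPM (0.92 ± 0.15, edgeR adjusted p = 0.00327). The other members that rose were Foxa1 and Cbfa2t2, by 0.81 ± 0.25 and 0.85 ± 0.13. Against wild type the list was split in EYFP cells, with 6 of 12 members lower and 5 higher. Of all genes tested in that comparison, 33.5% were lower and 27.1% higher.

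Genes for mucin folding and granule release had 13 of 18 members lower, 0 higher and 5 not past the test, with a median of -1.86. Over all genes tested, 19.4% were lower and 16.8% higher. Ern2, the stress sensor of the endoplasmic reticulum found in mucus-making cells, went from 233 and 269 CPM in EGFP cells to 4.58 and 10.2 CPM in EYFP cells (-5.10 ± 0.42, edgeR adjusted p = 0.000627; -5.78 without EYFP replicate 2). Its broadly expressed relative Ern1 did not pass, at -0.18 (edgeR adjusted p = 0.355). Capn9, a calpain protease of the digestive tract, had the largest fall of this list, -6.12 ± 0.46 (-6.9 without EYFP replicate 2).

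Enzymes of mucin O-glycans had 18 of 25 members lower, 2 higher and 5 not past the test, with a median of -1.63. Among all genes tested, 19.4% were lower and 16.8% higher. Galnt3, which starts O-glycan chains, went from 135 and 99.4 to 52.6 and 45.1 CPM (-1.258 ± 0.18, edgeR adjusted p = 0.00192). A4gnt, which caps O-glycans with N-acetylglucosamine, held 629 counts over both EGFP libraries and 2 over both EYFP libraries, a level 408-fold lower with a 95% counting interval of 112 to 3373. Leaving out EGFP replicate 1 or 2 gave a ratio of 255 or 626, and leaving out EYFP replicate 1 gave 186. EYFP replicate 1 alone held 0 counts, for at least 148-fold. Gcnt4, which makes branched O-glycans, rose from 33.5 and 33.2 to 131 and 81.9 CPM (1.68 ± 0.22, edgeR adjusted p = 0.00141), and St6galnac2, a sialyltransferase, was the other member that rose (0.51 ± 0.15, edgeR adjusted p = 0.0353).

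**Figure D4:**
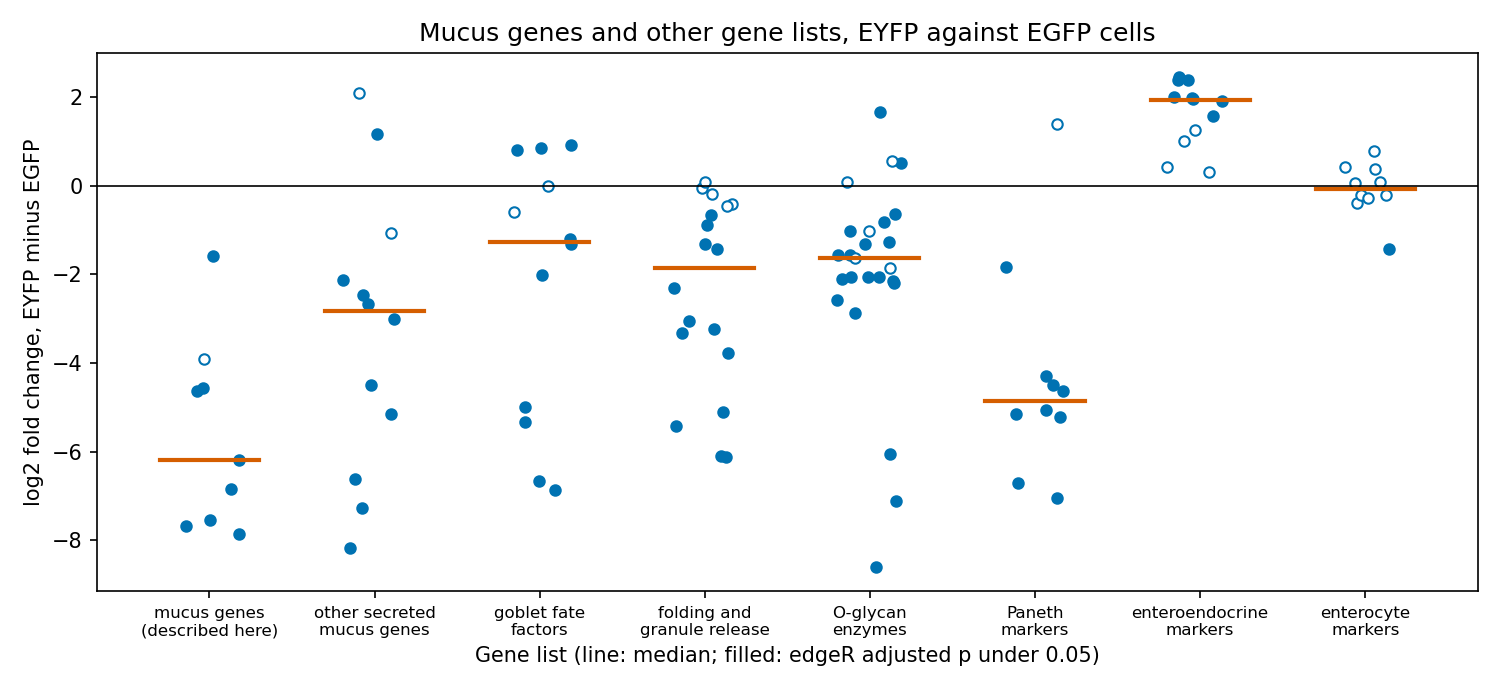
Log2 fold changes between EYFP and EGFP cells for the 9 mucus genes and for genes of 7 lists; each circle is 1 gene that was tested, filled where edgeR's adjusted p was under 0.05, and the orange line is the median of the list. The medians are -6.18 for the mucus genes, -4.85 for Paneth markers and 1.94 for enteroendocrine markers.

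Markers of other cell types moved beside the mucus genes, and their part in the differences was not tested. The counts that follow stand beside 19.4% lower and 16.8% higher among all genes tested between EYFP and EGFP cells. Between EYFP and EGFP cells 9 of 10 Paneth markers were lower and 0 higher, and their summed level was 16000 to 21010 CPM in EGFP cells, 4864 to 6433 CPM in EYFP cells and 13820 to 22440 CPM in wild type. Reg4, the member that did not pass (log2 fold change 1.39, edgeR adjusted p = 0.0804), made up 84.8% and 93.5% of the sum in the EYFP libraries, and the other 9 summed to 14600 and 18560 CPM in EGFP cells, 740 and 416 CPM in EYFP cells, and 13670 and 22030 CPM in wild type. Reg4 stood at 4123 and 6016 CPM in EYFP cells, 1400 and 2459 CPM in EGFP cells, and 150.5 and 414.3 CPM in wild type. This is the order of groups of the enteroendocrine sums below, not that of the other Paneth markers. The Paneth list shares Itln1 and Ang4 with the list of other secreted mucus genes. Lyz1, the Paneth lysozyme, stood at 3253 to 4521 CPM in EGFP and 124 to 276 CPM in EYFP cells. Of 12 enteroendocrine markers 8 were higher and 0 lower. Their sums were 15350 to 23010, 66140 to 69550 and 726 to 864 CPM in the 3 groups in the same order. Without Chgb the sums were 9070 to 13940, 22390 to 33040 and 382 to 476.5 CPM. The granule protein gene Chga was at 1990 to 3357 and 9611 to 10630 CPM in EGFP and EYFP cells. Of 10 enterocyte markers 1, Fabp2, was lower and 0 higher, and the sums were 1976 to 2469, 1886 to 2655 and 30920 to 53670 CPM. Alpi, an enterocyte phosphatase, stood at 35.1 to 49.4 and 21 to 44.3 CPM in the sorted groups.

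Tuft markers had 5 of 6 tested members lower and 0 higher, with sums of 112 to 190, 7.47 to 15.6 and 21.9 to 91.6 CPM, and Gng13, Il25 and Gfi1b were at 0 in both EYFP libraries. Pou2f3, their defining factor, was at 10.4 to 18.3 CPM in EGFP and 0.252 to 0.282 CPM in EYFP cells. Stem cell markers had 4 of 6 lower, with Lgr5 at 16.2 to 27.4 and 8.41 to 11.0 CPM, and sums of 1459 to 1793, 693 to 721 and 1363 to 2029 CPM. All 6 cycling genes were lower, with Mki67 at 329 to 352 and 55.5 to 90.9 CPM, and sums of 863 to 957, 147 to 209 and 675 to 954 CPM. Immune markers summed to 7.36 to 12.0, 8.67 to 9.3 and 162 to 197 CPM, with 1 of 5 lower (Itgae) and Ptprc at 1.21 to 3.13 and 1.68 to 6.13 CPM. A share of 1 in 5 is near the 19.4% of all genes tested that were lower. Stromal markers summed to 178 to 185, 903 to 1742 and 14.2 to 41.1 CPM, with 2 of 5 higher, Vim and Pecam1, and Col1a1 at 0.338 to 4.22 and 0.564 to 1.01 CPM. Vim made up 91.0% and 97.3% of that sum in the EGFP libraries and 98.8% and 97.9% in the EYFP libraries, and the 3 collagen genes, at -1.47, -0.82 and -1.04 on the log2 scale, missed the threshold.

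The genes whose pattern was most like that of Muc2 were sought among 9684 genes at 10 CPM or more on average, by Pearson's correlation of log2 CPM over the 6 libraries, which share the 3 groups and so are not independent points. Lrrc26, an accessory subunit of a potassium channel, had r = 0.995 and stood at 66.9 and 90.1 CPM in EGFP cells, 8.74 and 13.8 CPM in wild type, and 0.423 and 1.68 CPM in EYFP cells. Liph, a phospholipase, had the next highest r, 0.995, with 134 and 128, 49.7 and 66.0, and 5.85 and 11.7 CPM in the same order. Zw10, a protein of the kinetochore and of vesicle traffic, followed at 0.995 over a narrow range of 28.3 to 45.4 CPM. For Muc13 the closest were Tjp3, a tight junction protein (r = 0.997), P2ry1, a receptor for nucleotides (0.997), and the inflammatory caspase Casp4 (0.996). Tjp3 stood at 236 and 242 CPM in EGFP cells, 318 and 307 CPM in wild type, and 67.0 and 71.1 CPM in EYFP cells.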

How the data were processed

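RNA was measured in 6 libraries (Illumina TruSeq, single-end reads of 50 bases, per the labels' protocols). The submitters' processing notes name mm10, RSEM 1.3.1, DESeq2 1.26.0, Bowtie2 and FastQC 0.11.8, without their roles; neither these nor the labels state a strand setting. Estimated counts for each gene, some of them not whole numbers, were deposited by the authors. Their comparison table gives, as deposited by the authors, a signal for every library (each count over a size factor), a linear fold and an adjusted p-value, used only where named. Columns of the EYFP libraries carry the word addon and were matched to titles by it.

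Counts were rounded, filtered with filterByExpr (13935 of 23845 genes, 58.4%), scaled (TMM) and tested in edgeR 4.0.16 (quasi-likelihood, robust, 3 group means, 3 residual degrees of freedom, Benjamini-Hochberg adjustment at 0.05). The procedure was run on simulated data with the same spread for every gene. That run does not speak for genes whose replicates lay far apart. SE was derived from the F value. A count of 0 was given a floor of 3 counts. Coordinates are from RefSeq and transcript lengths from GENCODE, both GRCm38, through the RefSeq accessions of the count table. The members and lists were chosen with earlier results of these data known. The rule named all 9 members, Neurog3, the members of each mucus list with the largest rise and fall, the first symbol of each marker list, and the 3 genes most like Muc2 and Muc13; other genes were named after their values were seen. Alternatives were other scalings, other filters, DESeq2 1.42.0, fewer libraries and a replicate block.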

Additional observations from a re-analysis of the deposited data

How the results depend on the processing

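The 9 genes were tested in 3 comparisons under 7 other settings and without each library in turn. Apart from leaving out libraries, 180 of 189 values of single genes kept direction and side of the threshold, 6 lost their call and 3 gained one, and none turned; the genes that changed are named above. With 1 library left out, 143 of 162 values kept both, and 3 turned: Retnlb between EYFP and EGFP cells (2.62) and between EGFP cells and wild type (-1.3), both without EGFP replicate 1, and Agr2 between EYFP cells and wild type (0.35 without EYFP replicate 1, -1.5 without EYFP replicate 2). Retnlb had -4.92 between EYFP and EGFP cells without EGFP replicate 2, and 11.47 between EGFP cells and wild type without wild-type replicate 2, where wild type is at 0 and the fitted value is no bound. Without each library in turn, 8 mucus genes were lower in EYFP than in EGFP cells in each case (without EGFP replicate 2, Retnlb in place of Clca3), 4 to 7 were higher in EGFP cells than in wild type, and 4 to 7 were lower in EYFP cells than in wild type. Where a group was left with 1 library, it was assumed to vary like the others. Over all genes, leaving out 1 library gave 1138 to 2525 higher and 1254 to 2958 lower between EYFP and EGFP cells (2343 and 2702 with all libraries), and 1820 to 3019 lower between EGFP cells and wild type (3046 with all); the cause was not tested. DESeq2 size factors moved the median of all genes between EYFP cells and wild type from -0.12 to -0.007.

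Same-numbered libraries showed no strong shared deviation over genes (correlations of 0.0143 to 0.0964 between groups). With 2 libraries in each group this cannot exclude that same-numbered libraries were handled together. With the replicate number as a block, 8 mucus genes were lower in EYFP than in EGFP cells, 7 were higher in EGFP cells than in wild type (Clca3 passed, adjusted p = 0.00425) and 6 were lower in EYFP cells than in wild type. Counts of Retnlb were 33 or fewer in 5 of the 6 libraries, and the counting intervals of the EGFP pair did not overlap, so its spread lay between libraries.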

Other observations

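Values of 2 relatives of the mucus genes, chosen after they were seen, were set beside those of Fcgbp and Clca3. Between EYFP and EGFP cells, 9530053A07Rik differed from Fcgbp in direction, and the row named Clca1 differed from Clca3 in size only. 9530053A07Rik, downstream of Fcgbp on chromosome 7 from 28129466 to 28164811, shares stretches of sequence with it, so its count is uncertain. It stood at 2.65 and 2.88 CPM in EGFP cells, 7.89 and 6.73 CPM in EYFP cells, and 0.0833 and 0.0603 CPM in wild type, and was 1.40 ± 0.34 higher on the log2 scale in EYFP than in EGFP cells (edgeR adjusted p = 0.0167), where Fcgbp was lower. Leaving out EGFP replicate 1 or 2, or EYFP replicate 1 or 2, ended this call (adjusted p of 0.081, 0.0684, 0.094 and 0.056). The row named Clca1, which by its RefSeq transcript is the gene now called Clca3a1, lies on chromosome 3 from 144729677 to 144760977. It stood at 18 and 11.4 CPM in EGFP cells, 9.33 and 8.99 CPM in wild type, and 1.27 and 3.11 CPM in EYFP cells, the same order of groups as Clca3. It fell by 2.75 ± 0.43 from EGFP to EYFP cells (edgeR adjusted p = 0.00289; -3.52 without EYFP replicate 2), where Clca3, of the same family, had -7.66.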
